A study of Mus musculus with 6 samples.

Results

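The 10 genes described here are complement components (C1qa, C1qb, C1qc, C3, Cfb and Cfp), the receptors of the complement anaphylatoxins (C3ar1 and C5ar1) and the formyl peptide receptors Fpr1 and Fpr2, out of 23282 rows in a table of gene counts from mouse alveolar macrophages. They were picked by name and function after the Sdha-KO against WT differences of the same 6 libraries had been seen. Their genotype differences are therefore given as a description, with no p-value printed for any of them. Where it is counted how many of them a test called, the count stands beside the share of all tested genes and nothing is read from it. All 10 have 1 row each in the table, and all 10 are among the 9963 genes that passed the filter on low counts.

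Alveolar macrophages live in the air spaces of the lung, where they take up microbes and surfactant. The 3 Sdha-KO and 3 WT libraries came from mouse lung cells sorted for CD45, CD11c, SiglecF and F4/80 and against CD11b. Sdha-KO mice carried floxed Sdha alleles and LysM-Cre, a Cre recombinase expressed from the Lyz2 locus in myeloid cells, which include neutrophils and monocytes as well as macrophages. The product of Sdha is the catalytic, FAD-binding part of succinate dehydrogenase, which joins the TCA cycle to the respiratory chain. The labels call the control mice wildtype and do not say whether they carried Cre or floxed alleles. Age, strain, sex and the number of mice behind a library were not found in the sources used here, so the spread between libraries may be partly technical. Replicate numbers 1 to 3 are also given as batches 1 to 3, so each number holds 1 library of each genotype. The kit reads the 3' end of polyadenylated RNA, so CPM values (reads scaled to library size and composition) can be set side by side between genes without dividing by length. In bulk RNA, fewer cells of a type and less RNA per cell cannot be told apart.

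Complement is a set of plasma and tissue proteins that tag microbes and dying cells for uptake. C1q, built from the products of C1qa, C1qb and C1qc, starts the classical pathway. The central component C3 is cleaved by convertases, one of which contains factor B (Cfb) and is held together by properdin (Cfp). The released fragments C3a and C5a attract and activate leukocytes through C3ar1 and C5ar1, and Fpr1 and Fpr2 sense formylated peptides from bacteria and mitochondria. In mouse lung, C1q transcripts are known more from interstitial than from alveolar macrophages, and the formyl peptide receptors are also abundant in neutrophils.

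The C1q genes and the Fpr genes lie close together in the genome, and stretches before their start sites are shown because the C1q chains were all higher, and both Fpr genes lower, in Sdha-KO replicates 2 and 3. On mm10 with GENCODE M21, C1qb, C1qc and C1qa lie in a row on the minus strand of chromosome 4 within chr4:136880129-136898803, with gaps of 3616 and 2851 bases. Fpr1 (minus strand) and Fpr2 (plus strand) lie head to head on chromosome 17 within chr17:17876471-17893952, separated by 3883 bases. The sequences are the 250 bases before each start site from RefSeq on GRCm38.p6, which is the mm10 assembly, read 5′ to 3′ on the gene's strand. RefSeq promoters were matched for 8 of the 10 genes. Start sites can differ between the annotations. GENCODE extends C1qc to chr4:136893065, so part of the C1qc stretch lies within the gene by that annotation. In the C1q pair, capitals mark GAGGAA or its reverse complement, the core of sites bound by PU.1, a transcription factor of myeloid cells. It occurs once in each stretch shown.

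C1qb promoter, chr4:136886201-136886450, minus strand: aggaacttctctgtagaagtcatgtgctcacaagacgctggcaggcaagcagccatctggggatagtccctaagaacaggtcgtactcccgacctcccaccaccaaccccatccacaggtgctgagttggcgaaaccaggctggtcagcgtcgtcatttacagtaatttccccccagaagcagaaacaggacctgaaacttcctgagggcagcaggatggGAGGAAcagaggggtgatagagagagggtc
C1qc promoter, chr4:136892915-136893164, minus strand: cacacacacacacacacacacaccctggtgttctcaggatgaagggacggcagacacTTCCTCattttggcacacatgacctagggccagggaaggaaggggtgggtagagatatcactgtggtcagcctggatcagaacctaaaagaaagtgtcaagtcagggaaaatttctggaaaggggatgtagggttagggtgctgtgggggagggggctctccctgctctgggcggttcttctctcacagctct

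In the Fpr pair, capitals mark TTNNGNAA or its reverse complement, a loose form of the motif of C/EBP factors of myeloid cells. There are 3 matches in the Fpr1 stretch and 2 in the Fpr2 stretch.

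Fpr1 promoter, chr17:17883940-17884189, minus strand: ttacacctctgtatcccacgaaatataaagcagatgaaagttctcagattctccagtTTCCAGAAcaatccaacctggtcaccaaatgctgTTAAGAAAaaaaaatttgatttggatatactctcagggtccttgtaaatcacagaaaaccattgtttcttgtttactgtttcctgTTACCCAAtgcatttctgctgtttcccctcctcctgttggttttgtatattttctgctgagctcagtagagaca
Fpr2 promoter, chr17:17887574-17887823, plus strand: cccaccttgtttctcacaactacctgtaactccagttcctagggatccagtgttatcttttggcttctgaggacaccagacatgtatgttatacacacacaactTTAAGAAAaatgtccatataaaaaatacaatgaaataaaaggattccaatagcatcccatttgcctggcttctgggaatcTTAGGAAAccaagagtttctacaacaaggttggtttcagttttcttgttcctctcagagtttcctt

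Neither motif is particular to the pair in which it is marked. GAGGAA or its reverse complement also has 1 match in the Fpr2 stretch, and TTNNGNAA 1 in the C1qc stretch, both left unmarked. The Fpr1 stretch has no match of GAGGAA and the C1qb stretch none of TTNNGNAA. Matches of this kind are frequent. On either strand and over windows of 250 bases before to 50 after the start, GAGGAA was found in 4 of 8 member promoters and in 28.3% of 32851 mouse promoters, and TTNNGNAA in 5 of 8 and 40.7%. The other motifs searched were GGANNNNCC for NF-kB (6 of 8, against 48.4% of all promoters), GAAANNGAA for interferon response elements (1 of 8, against 8.56%) and TTCNNNGAA for STAT sites (1 of 8, against 8.30%). A match is a description of the letters and not a bound site.

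Total counts per library were 5400160 to 8472907 in Sdha-KO and 5813531 to 8239600 in WT. The Rn45s row alone held 20.9%, 43.4% and 48.2% of these counts in Sdha-KO replicates 1 to 3. In WT replicates 1 to 3 it held 36.3%, 57.6% and 44.7%. The replicate 1 libraries stood apart. Genes with any count numbered 5438, 11383 and 12232 in Sdha-KO and 7893, 11991 and 13050 in WT replicates 1 to 3. Among the 3447 genes that reached 100 counts in all 4 other libraries, 612 had no count in Sdha-KO replicate 1 and 136 had none in WT replicate 1. Sdha, the targeted gene, averaged 23.3 ± 2.59 CPM in Sdha-KO and 64.6 ± 8.13 CPM in WT libraries without overlap (SD, n = 3 each), a limited check since the deleted exons are not named in the sources used here. Lyz2 had 0, 4 and 38 counts in Sdha-KO and 0, 23 and 2229 counts in WT replicates 1 to 3. Alveolar macrophage markers were present in both genotypes, with summed levels of 7810 to 10120.3 CPM in Sdha-KO and 9165 to 10717 CPM in WT libraries over 16 genes, led by Chil3 and Lpl. The sums overlapped, but single markers differed. Over all tested genes, 9.27% were lower and 5.04% higher in every Sdha-KO library than in any WT library. An unadjusted p under 0.05 in edgeR was reached by 2.64%, and 0.0502% were called. Of the 16, all tested, 5 were lower and 2 higher in every Sdha-KO library than in any WT library. Among them 7 had an unadjusted p under 0.05 and 1 was called. That gene, Ear1, a ribonuclease of alveolar macrophages named after its value was seen, had 145, 139 and 112 CPM in Sdha-KO, against 585, 575 and 739 CPM in WT replicates 1 to 3 (log2 fold change -2.26, SE 0.321, edgeR adjusted p = 0.0261), and it was the only gene called lower among the 5 called over all genes. No gene was called lower, Ear1 included, with the replicate block, with library totals alone, with a stricter filter, or when 1 of these libraries was left out: replicates 1 and 3 of Sdha-KO and replicate 1 of WT. Siglecf, which the sort used, had 0, 213 and 304 counts in Sdha-KO and 841, 620 and 1038 counts in WT replicates. Sdha-KO replicate 2 also held transcripts of liver-secreted proteins, with 2709 counts of albumin (Alb), against 0 and 47 in Sdha-KO replicates 1 and 3 and 0, 26 and 14 in WT replicates 1 to 3; Alb was looked up after the data were seen. Xist, expressed from the inactive X chromosome, had 2683, 498 and 822 counts in Sdha-KO and 0, 4608 and 6055 counts in WT replicates 1 to 3. Counts of Ddx3y, from the Y chromosome, were 0, 354 and 432 in Sdha-KO and 222, 0 and 143 in WT replicates, so neither gene was balanced between genotypes.

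Both formyl peptide receptor genes were lower in every Sdha-KO library than in any WT library. Fpr2, on chromosome 17 and in WT the most abundant of the 10 genes, had 92.7, 82.4 and 117 CPM in Sdha-KO replicates 1 to 3, against 363, 350 and 430 CPM in WT replicates 1 to 3. The highest Sdha-KO library was thus far below the lowest WT library. The means were 97.5 ± 18.02 CPM in Sdha-KO and 381 ± 43.0 CPM in WT libraries (SD, n = 3 each), a fitted log2 fold change of -1.96 (SE 0.354) or 3.90-fold lower. Within replicate numbers 1 to 3 Fpr2 was 3.91-fold, 4.24-fold and 3.66-fold lower in Sdha-KO, the narrowest spread over replicate numbers among the 10 genes. GENCODE places exons of Fpr3, a close paralog, over those of Fpr2, so reads could be shared between them. The Fpr3 row held 0 counts in all 6 libraries, as did the rows of Fpr-rs3, Fpr-rs4 and Fpr-rs6.

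Fpr1, the receptor with the higher affinity for bacterial formyl peptides, had 129, 161 and 59.2 CPM in Sdha-KO replicates 1 to 3, against 315, 258 and 289 CPM in WT replicates 1 to 3. All 3 Sdha-KO libraries lay below all 3 WT libraries, and Sdha-KO replicate 3 was the lowest. The means were 116 ± 52.1 CPM in Sdha-KO and 288 ± 28.6 CPM in WT libraries (SD, n = 3 each), a log2 fold change of -1.31 (SE 0.427) or 2.47-fold lower. The difference within replicate numbers was less even than that of Fpr2, at 2.45-fold, 1.60-fold and 4.89-fold lower. Taken as a pair, Fpr1 and Fpr2 summed to 221, 243 and 177 CPM in Sdha-KO and 678, 608 and 719 CPM in WT replicates 1 to 3. Fpr1 made up 58.1%, 66.2% and 33.5% of that sum in Sdha-KO and 46.5%, 42.5% and 40.2% in WT replicates, so the balance between the receptors overlapped between genotypes while both levels did not.

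**Figure D1:**
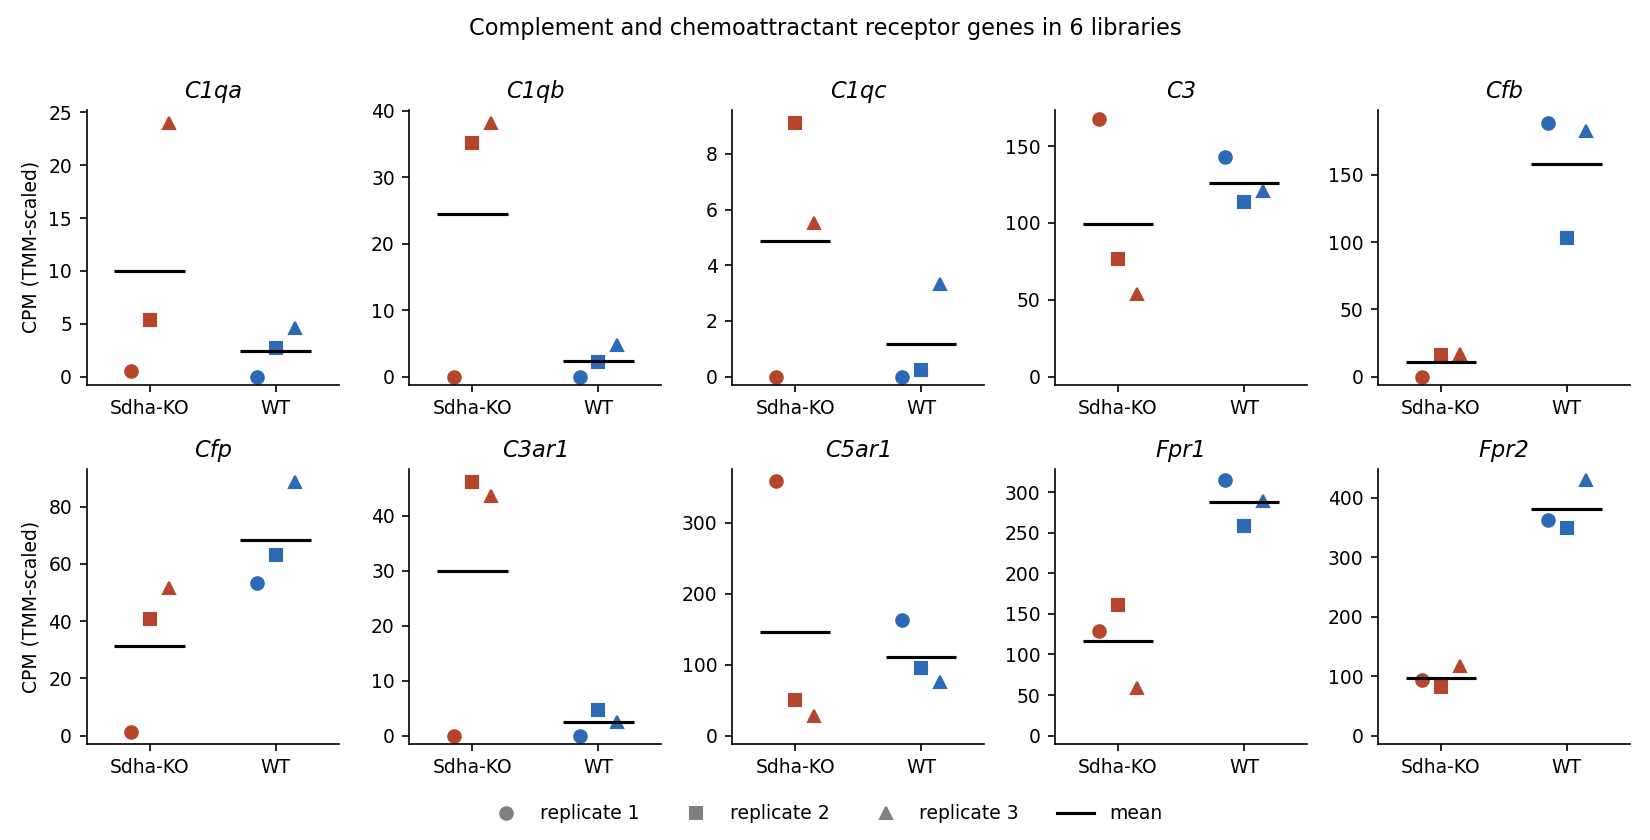
Level of each of the 10 genes in CPM (linear axes, a different scale in each panel) in 3 Sdha-KO libraries (red, left) and 3 WT libraries (blue, right); marker shapes give the replicate number and bars the mean. Cfb, Cfp, Fpr1 and Fpr2 do not overlap between genotypes, and the replicate 1 libraries sit at or near 0 for C1qa, C1qb, C1qc and C3ar1.

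Among components of the alternative pathway, Cfb had the largest fitted decrease of the 10 genes. Cfb, on chromosome 17 at chr17:34856374-34862518, had 0, 15.99 and 16.7 CPM in Sdha-KO replicates 1 to 3, against 189, 103 and 183 CPM in WT replicates 1 to 3. The counts were 0, 86 and 112 in Sdha-KO, against 1539, 465 and 1435 in WT replicates. The genotypes did not overlap, and replicates 2 and 3 of Sdha-KO were close to each other. The fitted log2 fold change was -3.86 (SE 1.62), or 14.6-fold lower, and it was -3.27 (SE 0.459) without Sdha-KO replicate 1. Within replicate numbers 2 and 3 Cfb was 6.45-fold and 10.9-fold lower. No fold is given for replicate number 1, since many abundant genes also had no count in that Sdha-KO library. Exons of the gene model Gm20547 span those of Cfb and of its neighbour C2, so its count could be shared with that model. C2 itself had 0, 2 and 0 counts in Sdha-KO and 0, 15 and 10 counts in WT replicates 1 to 3.

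Cfp, on chromosome X, had 1.42, 40.9 and 51.7 CPM in Sdha-KO replicates 1 to 3, against 53.2, 63.2 and 88.6 CPM in WT replicates 1 to 3. The highest Sdha-KO library was just below the lowest WT library, and within replicate numbers 2 and 3 the gene was 1.55-fold and 1.71-fold lower in Sdha-KO. The means were 31.3 ± 26.5 CPM in Sdha-KO and 68.3 ± 18.3 CPM in WT libraries (SD, n = 3 each), a log2 fold change of -1.13 (SE 1.04). Part of this size came from Sdha-KO replicate 1, without which the log2 fold change was -0.56 (SE 0.458). Without both batch 1 libraries the log2 fold change was -0.70 (SE 0.351). As Cfp is X-linked, its level in replicates 2 and 3 stands beside the uneven Xist counts given above, and their part in it was not tested.

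C3 overlapped between genotypes. It had 168, 76.4 and 53.5 CPM in Sdha-KO replicates 1 to 3, against 143, 114 and 121 CPM in WT replicates 1 to 3. Sdha-KO replicate 1 was the highest of all 6 libraries and Sdha-KO replicates 2 and 3 were the lowest, 1.49-fold and 2.26-fold below WT within their numbers. The means were 99.2 ± 60.3 CPM in Sdha-KO and 126 ± 15.3 CPM in WT libraries (SD, n = 3 each), a log2 fold change of -0.34 (SE 0.509). It was -0.95 (SE 0.377) without Sdha-KO replicate 1 and 0.06 (SE 0.616) when libraries were scaled by their totals alone, a setting that moved the median of all tested genes by more than 0.1, to 0.05 from -0.13. Hepatocytes also make C3 and factor B, and the part of the liver transcripts in Sdha-KO replicate 2 in these 2 genes was not tested. Without that library the log2 fold change was -0.18 (SE 0.593) for C3 and -4.24 (SE 2.62) for Cfb.

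Within a library, the ratio of Cfb to C3 does not depend on scaling. Cfb made up 0%, 17.3% and 23.8% of the summed Cfb and C3 counts in Sdha-KO replicates 1 to 3, against 56.9%, 47.6% and 60.2% in WT replicates 1 to 3. The exact 95% binomial intervals, which cover counting error only, were 14.1% to 20.9% in Sdha-KO replicate 2 and 44.4% to 50.8% in WT replicate 2. In Sdha-KO replicate 1 the share rests on 0 of 2008 counts, in the library where 612 abundant genes had no count. The share of Cfb was below that of WT in all 3 Sdha-KO libraries. Cfp as a share of the summed Cfp and C3 counts showed no such separation, at 0.840%, 34.9% and 49.2% in Sdha-KO and 27.1%, 35.8% and 42.3% in WT replicates 1 to 3.

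**Figure D2:**
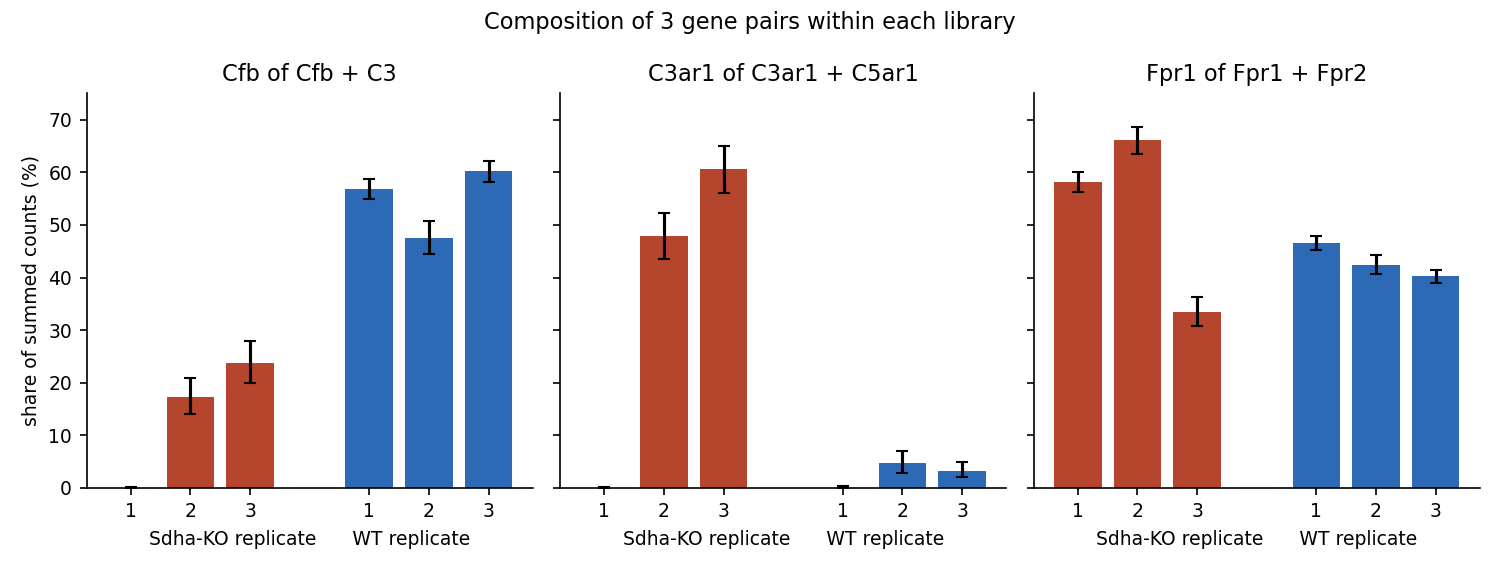
Share of 1 gene in the summed counts of a pair, in percent, for each Sdha-KO library (red, left) and WT library (blue, right), with exact 95% binomial intervals as error bars. Cfb holds at most 23.8% of the Cfb and C3 counts in Sdha-KO and at least 47.6% in WT libraries, and C3ar1 holds a large share of the anaphylatoxin receptor counts only in Sdha-KO replicates 2 and 3.

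The 3 C1q chain genes were low in WT libraries and higher in Sdha-KO replicates 2 and 3. C1qb had 0, 35.1 and 38.2 CPM in Sdha-KO replicates 1 to 3, against 0, 2.22 and 4.71 CPM in WT replicates 1 to 3. C1qa had 0.501, 5.39 and 24.0 CPM in Sdha-KO, against 0, 2.66 and 4.58 CPM in WT replicates. C1qc had 0, 9.11 and 5.51 CPM in Sdha-KO, against 0, 0.222 and 3.31 CPM in WT replicates. In replicates 2 and 3 every Sdha-KO library exceeded both WT libraries for each chain, while in replicate number 1 the single nonzero value was 6 counts of C1qa in Sdha-KO. A count of 0 there allows up to 3 counts, or 0.2503 CPM in Sdha-KO and 0.368 CPM in WT replicate 1, by counting error alone. As abundant genes also had no count in these libraries, the 0 does not bound the level.

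Summed over the chains, C1q counts were 6, 267 and 454 in Sdha-KO and 0, 23 and 99 in WT replicates 1 to 3. The fitted log2 fold changes over 6 libraries were 3.39 (SE 2.57) for C1qb, 2.04 (SE 2.46) for C1qa and 2.03 (SE 2.77) for C1qc, with errors above the estimates for the last 2. The value of C1qa was 0.27 without Sdha-KO replicate 3, and that of C1qc was 5.32 without WT replicate 3 and 1.24 without Sdha-KO replicate 2. C1qb made up 70.8% (64.9% to 76.2%) of C1q counts in Sdha-KO replicate 2, against 43.5% (23.2% to 65.5%) in WT replicate 2. In replicate 3 it made up 56.4% (51.7% to 61.0%) in Sdha-KO, against 37.4% (27.9% to 47.7%) in WT. C1qc made up 18.4% in Sdha-KO and 4.35% in WT replicate 2, but 8.15% in Sdha-KO and 26.3% in WT replicate 3. C1qa made up 10.9% in Sdha-KO and 52.2% in WT replicate 2, and 35.5% in Sdha-KO and 36.4% in WT replicate 3. The intervals cover counting error only, and no difference in the ratio of the chains between genotypes was tested.

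The anaphylatoxin receptors differed from each other. C3ar1, the receptor of C3a, had 0, 46.1 and 43.5 CPM in Sdha-KO replicates 1 to 3, against 0, 4.66 and 2.55 CPM in WT replicates 1 to 3. Like C1qb, it had no count in replicate number 1 of either genotype and was higher in Sdha-KO in the others, by 9.90-fold and 17.1-fold. The fitted log2 fold change was 3.64 (SE 2.53), the largest increase of the 10 genes, with the groups overlapping through the 0 of Sdha-KO replicate 1.

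C5ar1, the main receptor of C5a, had 359, 50.2 and 28.3 CPM in Sdha-KO replicates 1 to 3, against 163, 95.4 and 75.4 CPM in WT replicates 1 to 3. Its direction was opposite in replicate number 1, where Sdha-KO was 2.20-fold higher, and in replicate numbers 2 and 3, where Sdha-KO was 1.90-fold and 2.66-fold lower. The fitted log2 fold change of 0.39 (SE 0.873) became -1.50 (SE 0.504) without Sdha-KO replicate 1 and -0.43 (SE 0.622) with a replicate block. With that block the median of all tested genes was -0.48, against -0.13 in the main fit. C3ar1 made up 0%, 47.9% and 60.6% of the summed receptor counts in Sdha-KO, against 0%, 4.66% and 3.27% in WT replicates 1 to 3. The summed level of both receptors was 359, 96.3 and 71.8 CPM in Sdha-KO and 163, 100 and 77.9 CPM in WT replicates. In replicates 2 and 3 that sum was close between genotypes while its composition was not. C5ar2, the other C5a receptor, had 7, 63 and 31 counts in Sdha-KO and 9, 101 and 102 counts in WT replicates, lower in Sdha-KO within 3 of 3 replicate numbers but overlapping between genotypes (log2 fold change -1.11, SE 2.10).

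**Figure D3:**
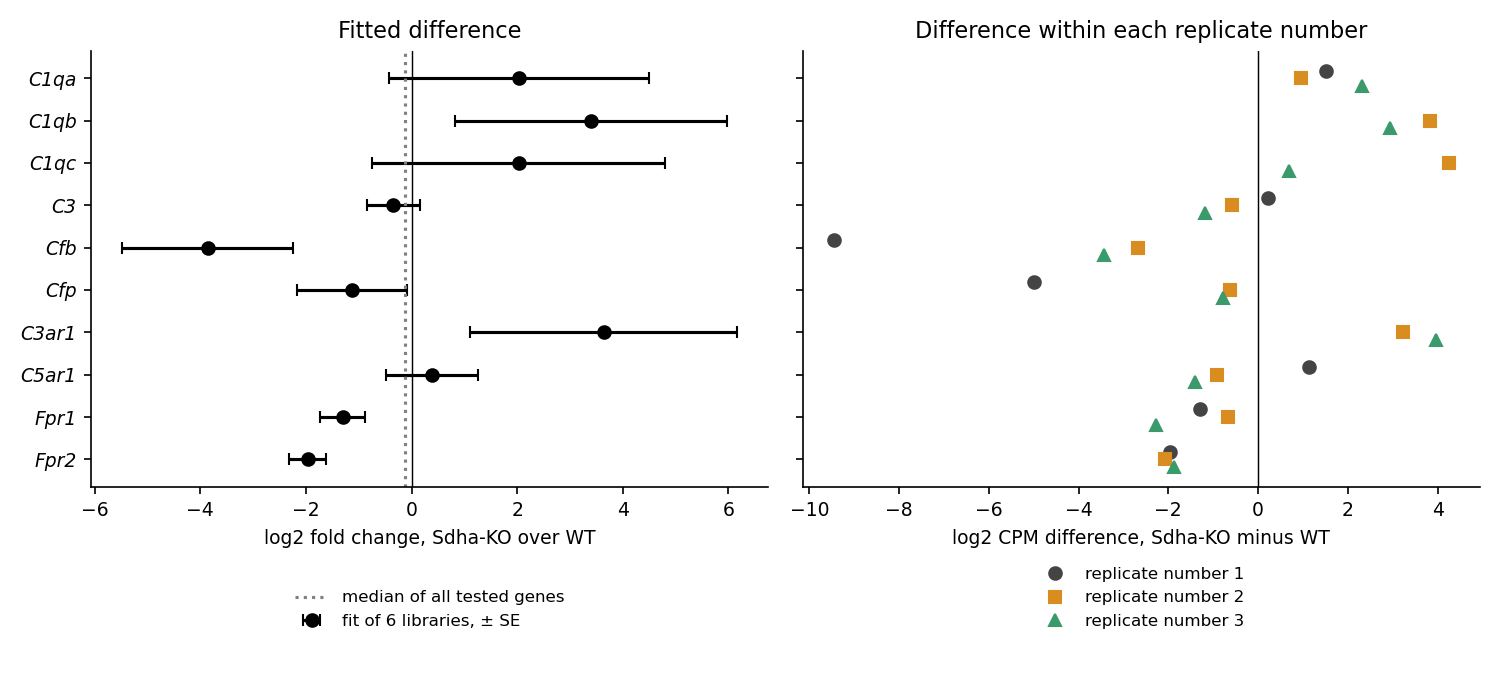
Left, fitted log2 fold change of Sdha-KO over WT with its SE for the 10 genes, with the median of all tested genes (-0.13) as a dotted line. Right, the log2 CPM difference of Sdha-KO minus WT within each replicate number (a prior count of 2 was added; pairs with 0 in both libraries are not drawn), where Fpr2 shows 3 nearly equal values and C3 and C5ar1 change sign between replicate number 1 and the others.

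Read across the 10 genes, 5 had a fitted log2 fold change above 0 and 5 below, with a median of 0.02, against -0.13 for all tested genes. None of the 10 was called by edgeR's quasi-likelihood test at an adjusted p under 0.05, a share of 0.0502% among all 9963 tested genes (5 genes). At an unadjusted p under 0.05 there were 2 of the 10, Fpr1 and Fpr2, against 2.64% of all tested genes. Fpr2 was the 1 gene of the 10 called by DESeq2 (0.211% of tested genes), by limma-voom (0.793%) and by edgeR with no filter on low counts (0.312% of 15381 genes). Without both batch 1 libraries, Cfb was called (0.251% of 10757 tested genes), and blocking on replicate number in those 4 libraries gave C1qb, Cfb, C3ar1 and Fpr2 as called (3.01%), with 1 residual degree of freedom.

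All 3 Sdha-KO libraries lay below all 3 WT libraries in 4 of the 10 genes, against 9.27% of tested genes, and above in 0 of the 10, against 5.04%. Sdha-KO was lower within 3 of 3 replicate numbers in those 4 genes (19.9% of tested genes) and higher within 3 of 3 in 1, C1qa (11.4%). Within replicate numbers 2 and 3, Sdha-KO was lower in 6 genes (32.3% of tested genes) and higher in 4 (28.1%). In these 4 libraries, both Sdha-KO libraries were below both WT libraries in the same 6 genes, Cfb, Cfp, C3, C5ar1, Fpr1 and Fpr2 (23.7% of tested genes). They were above in the other 4, the C1q chains and C3ar1 (20.6%). Replicate number 1 had the opposite sign to both other numbers in 2 of the 10, C3 and C5ar1 (18.2%). Because the genes were chosen with these values in view, nothing is read from these counts. The same holds for which of the 10 a test called or gave an unadjusted p under 0.05.

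The order of the 10 genes by mean level also differed between genotypes. In WT libraries the order of mean levels was Fpr2 (381 CPM), Fpr1 (288), Cfb (158), C3 (126), C5ar1 (111) and Cfp (68.3), followed by C1qa, C3ar1, C1qb and C1qc between 2.42 and 1.18 CPM. From Cfb to Cfp each gene overlapped with the next in that order between WT libraries, whereas Fpr2, Fpr1 and Cfb did not overlap with each other. In Sdha-KO libraries C5ar1 came first at 146 CPM because of replicate 1, followed by Fpr1 (116), C3 (99.2) and Fpr2 (97.5). Cfp, C3ar1 and C1qb averaged 31.3, 29.9 and 24.4 CPM there, and Cfb, C1qa and C1qc averaged 10.9, 9.96 and 4.88 CPM. The SDs of these 6 genes in Sdha-KO, between 4.59 and 26.5 CPM, were close to their means, so their order there is not resolved.

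Other genes of the complement system were compared in the same fit. None of 17 tested genes, out of 51 listed, passed edgeR's quasi-likelihood test over all genes (adjusted p under 0.05), and DESeq2 and limma-voom also called 0. Of the 17, 1 had an unadjusted p under 0.05 in edgeR, against 2.64% of all tested genes. It was the integrin chain Itgax of complement receptor 4 (CD11c, which the sort used), named after its value was seen, with 209 ± 66.2 CPM in Sdha-KO and 375 ± 107 CPM in WT libraries (SD, n = 3 each; edgeR adjusted p = 1.00). The median log2 fold change of the 17 was 0.61, against -0.13 for all tested genes, with 11 above 0 and 6 below. The list was unevenly covered, as 6 listed genes had no count in any library.

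Of complement components outside the 10 genes only 3 of 24 were tested. C1ra, a protease of the C1 complex, had 0, 47 and 49 counts in Sdha-KO and 279, 72 and 50 counts in WT replicates 1 to 3 (log2 fold change -1.82, SE 2.19). Colec12, a scavenger receptor that can bind microbes, had 276, 57 and 31 counts in Sdha-KO and 0, 21 and 35 counts in WT replicates (log2 fold change 2.07, SE 2.29). Both genes overlapped between genotypes. Hc, which encodes C5, the source of the ligand of C5ar1, had 0, 16 and 8 counts in Sdha-KO and 0, 0 and 23 counts in WT replicates, too few for the test.

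Regulators that protect host cells were represented by Cr1l (Crry), a membrane inhibitor of the C3 convertases of rodents, with 30.7 ± 10.9 CPM in Sdha-KO and 31.9 ± 4.44 CPM in WT libraries (SD, n = 3 each; log2 fold change -0.06, SE 1.12). Serping1, the C1 inhibitor gene, had 0, 44 and 94 counts in Sdha-KO and 0, 24 and 31 counts in WT replicates 1 to 3. Of the 5 tested regulators 4 had log2 fold changes above 0, with a median of 1.26, and none passed. Among receptors and C1q-binding proteins, Calr (calreticulin) averaged 784 ± 164 CPM in Sdha-KO and 1088 ± 258 CPM in WT libraries. Lrp1, an endocytic receptor that can act with calreticulin, averaged 453 ± 47.8 CPM in Sdha-KO and 400 ± 35.6 CPM in WT libraries (SD, n = 3 each). Both overlapped between genotypes, with log2 fold changes of -0.47 (SE 0.294) and 0.18 (SE 0.294).

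**Figure D4:**
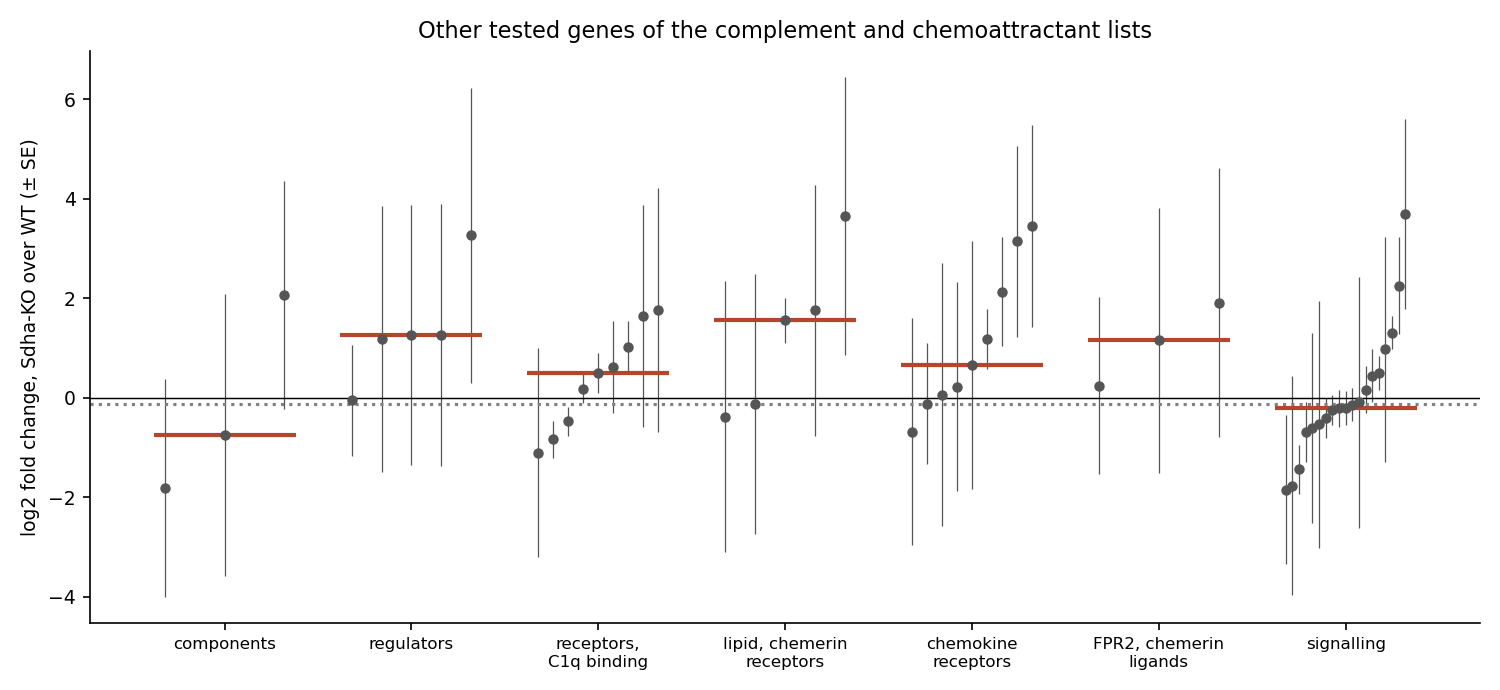
Fitted log2 fold change of Sdha-KO over WT with its SE for the other tested genes of the complement lists (left 3 columns) and the chemoattractant lists (right 4 columns); red bars are list medians and the dotted line is the median of all tested genes. None of the genes drawn passed the test over all genes.

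Other chemoattractant receptors, ligands and signalling genes were compared in the same way. None of 36 tested genes, out of 57 listed, passed edgeR's quasi-likelihood test (adjusted p under 0.05). Of these, 4 had an unadjusted p under 0.05 in edgeR, against 2.64% of all tested genes. DESeq2 called 0 (0.211% of all tested genes) and limma-voom called 1, Rgs1 (0.793%). The median log2 fold change of the 36 was 0.19, against -0.13 for all tested genes, with 20 above 0 and 16 below. No row carried the listed symbols Fpr-rs7 and Grk2.

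Ccrl2, an atypical receptor that presents the attractant chemerin, had 227, 308 and 252 CPM in Sdha-KO replicates 1 to 3, against 51.7, 69.9 and 146 CPM in WT replicates 1 to 3. It was higher in every Sdha-KO library than in any WT library (log2 fold change 1.55, SE 0.459, edgeR adjusted p = 1.00). Ltb4r1, the high-affinity leukotriene B4 receptor, was counted in 3 libraries only, with 891, 0 and 62 counts in Sdha-KO and 0, 30 and 0 counts in WT replicates 1 to 3. Of the chemokine receptors, Cxcr4 had 53.4, 128 and 115 CPM in Sdha-KO and 31.7, 38.8 and 60.5 CPM in WT replicates 1 to 3 (log2 fold change 1.18, SE 0.607). Ccr2, a receptor of monocyte-attracting chemokines, had 79.0, 27.7 and 68.1 CPM in Sdha-KO and 5.39, 13.1 and 21.5 CPM in WT replicates (log2 fold change 2.13, SE 1.09). Ccr2 did not overlap between genotypes and Cxcr4 did.

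The FPR2 ligand gene Anxa1 (annexin A1) had 0, 1106 and 908 counts in Sdha-KO and 718, 525 and 665 counts in WT replicates 1 to 3, higher in Sdha-KO in replicates 2 and 3 and at 0 in Sdha-KO replicate 1 (log2 fold change 0.24, SE 1.78). Rarres2, the chemerin gene, had 0, 18 and 58 counts in Sdha-KO and 0, 8 and 11 counts in WT replicates, and its exons overlap Lrrc61 on the other strand. Signalling genes shared by these receptors were close between genotypes for the most abundant of them. Gnai2, an inhibitory G protein subunit, averaged 917 ± 287 CPM in Sdha-KO and 1009 ± 338 CPM in WT libraries (log2 fold change -0.14, SE 0.331). Cybb, the catalytic subunit of the phagocyte NADPH oxidase, averaged 770 ± 277 CPM in Sdha-KO and 896 ± 348 CPM in WT libraries (SD, n = 3 each; log2 fold change -0.22, SE 0.370). The genes at an unadjusted p under 0.05, named after their values were seen, were Ccrl2, Rgs1 and Pik3r5, with log2 fold changes of 1.55, 1.30 and 2.25, and Plcb2 with -1.44. Rgs1 encodes a brake on G protein signalling, Pik3r5 a regulatory subunit of PI3-kinase gamma, and Plcb2 a phospholipase C activated by these receptors.

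Markers of other cell types were set beside these levels, since several of the 10 genes are also expressed outside alveolar macrophages. The formyl peptide receptors and Cfp, which neutrophils also express, were lower in Sdha-KO, and the part of neutrophils in their levels was not tested. The summed level of 14 neutrophil markers was 179, 297 and 229 CPM in Sdha-KO replicates 1 to 3. In WT replicates it was 107, 117 and 84.5 CPM. Elane had no count in any library and Mpo had 1, in WT replicate 3. The most abundant of them were S100a8, with 67.1 ± 9.14 CPM in Sdha-KO and 54.1 ± 32.8 CPM in WT libraries, and Mmp8, with 49.8 ± 38.8 CPM in Sdha-KO and 18.6 ± 3.62 CPM in WT libraries (SD, n = 3 each). The summed level of 15 interstitial macrophage markers was 179, 386 and 378 CPM in Sdha-KO and 74.9, 166 and 202 CPM in WT replicates, and all 8 tested members had log2 fold changes above 0 (median 1.14, none passing), while Folr2, which defines a subset of them, had no count in any library. Apoe, one of the 2 most abundant, averaged 95.02 ± 76.7 CPM in Sdha-KO and 35.4 ± 21.0 CPM in WT libraries, and Cd81 averaged 68.2 ± 24.0 CPM in Sdha-KO and 62.2 ± 16.6 CPM in WT libraries (SD, n = 3 each). Conventional dendritic cell markers summed to 5.17, 79.6 and 295 CPM in Sdha-KO and 19.97, 21.5 and 45.8 CPM in WT replicates 1 to 3 over 10 genes, led by Ccr7 and Fscn1. Fibroblast and mesothelial markers, led by Col1a2 and Col3a1, summed to 0, 84.4 and 172 CPM in Sdha-KO and 104, 60.4 and 51.1 CPM in WT replicates over 8 genes. All 4 of these sums were higher in both Sdha-KO libraries than in both WT libraries of replicates 2 and 3, as were the C1q chains and C3ar1, and their part in those levels was not tested.

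The CD11b gene Itgam, which the sort selected against, had 0, 190 and 151 counts in Sdha-KO and 80, 33 and 11 counts in WT replicates 1 to 3, with an overlapping gene model. Monocyte markers summed to 182 to 483 CPM in Sdha-KO and 190 to 451 CPM in WT libraries over 11 genes, led by Cd14 and Fn1. Lung epithelial markers, from cells that can make C3 and factor B, summed to 152 to 833 CPM in Sdha-KO and 292 to 465 CPM in WT libraries over 12 genes, led by Scgb1a1 and Cdh1. Endothelial markers summed to at most 13.7 CPM in Sdha-KO and 36.8 CPM in WT libraries over 5 genes, led by Kdr and Cdh5. Of the eosinophil markers Epx and Prg2 had no count in any library and Il5ra had 1 count in 2 libraries, whereas Ear6, a member of the eosinophil-associated ribonuclease family, had 3125, 489 and 512 counts in Sdha-KO and 0, 60 and 145 counts in WT replicates.

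**Figure D5:**
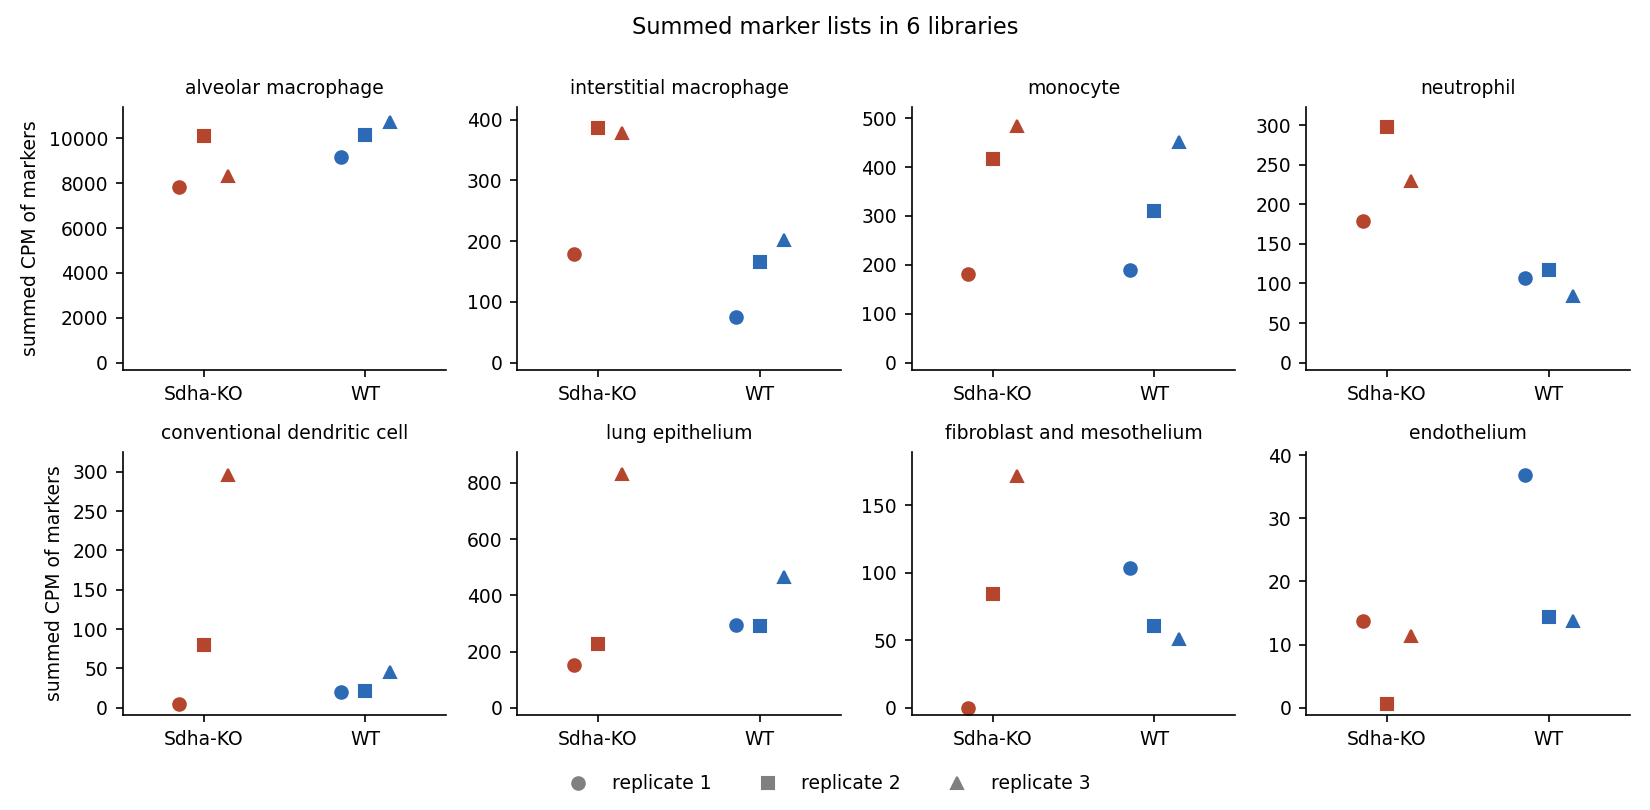
Summed CPM of marker lists in 3 Sdha-KO libraries (red, left) and 3 WT libraries (blue, right), on linear axes that differ between panels; marker shapes give the replicate number. The neutrophil sum does not overlap between genotypes (179 to 297 against 84.5 to 117 CPM), while the alveolar macrophage, interstitial macrophage and monocyte sums overlap.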

How the data were processed

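RNA of 3 Sdha-KO and 3 WT libraries of sorted alveolar macrophages was sequenced from the 3' end (QuantSeq), per the labels' protocols. The authors deposited a table of raw read counts with gene symbols as rows and the 6 libraries as columns. Bowtie2 and bedtools on mm10 are named, per the submitters' processing notes. Versions, annotation, strand and the treatment of reads with several matches were not found in the sources used here. Every column was used. Reads are not counted as molecules, so intervals cover counting error only.

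Genotypes were compared with edgeR 4.0.16 in R 4.3.3: filterByExpr with a minimum count of 10, TMM factors, a robust quasi-likelihood F-test with genotype as the only term, and Benjamini-Hochberg adjustment over 9963 genes at a threshold of 0.05. The procedure was tested on simulated data, and the outcome is not given here. In the main fit the square root of the common dispersion, a measure of spread between libraries, was 1.40. With that spread, a gene that was not called is not shown to be unchanged. CPM use the TMM factors, and an SE is the log2 fold change divided by the square root of F. Alternatives included DESeq2 1.42.0 and limma-voom (limma 3.58.1). The members and lists were chosen with earlier results of these data known. Outside the 10, the rule for names took, from each list that is not of markers, the genes past the threshold or else the 2 most abundant tested, from each marker list the 2 most abundant, and Sdha and Lyz2. Every other gene named (paralogs, neighbours, a ligand, sort and sex genes, markers at 0 and the called marker Ear1) was chosen after values were seen. One marker list is not reported here.

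The labels give the replicate number also as a batch, so the numbers pair the samples. Deviations from the group means correlated between same-numbered libraries at 0.155, 0.117 and 0.126. Differently numbered libraries of replicates 2 and 3 correlated at 0.0568 and 0.111. Those that set a replicate 1 library against another number gave -0.152 to -0.102. Coordinates are from GENCODE M21 on mm10.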

Additional observations from a re-analysis of the deposited data

How the results depend on the processing

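Over all genes, edgeR called 5. The count was 9 with library totals alone, 48 with no filter, 0 with a stricter filter on low counts (255 had an unadjusted p under 0.05), 21 with DESeq2 and 79 with limma-voom. It was 0 with the replicate block (296 at an unadjusted p under 0.05), 27 without both batch 1 libraries and 324 without them and with the replicate block. Leaving out 1 library gave 0 to 13 calls: 0 without WT replicate 1 (340 at an unadjusted p under 0.05), 12 without WT replicate 2, 13 without WT replicate 3, then 3 and 2 without the Sdha-KO libraries of replicates 1 and 3. RLE factors and dropping 3 rows (Lars2, Rn45s and Rn4.5s) each gave 5. The cause of these changes was not tested.

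The count of other complement genes called was 0. It became 1 of 19 tested (Cd93, higher) only without both batch 1 libraries and with the replicate block. That of other chemoattractant genes was also 0. With no filter 1 of 47 tested was called (0.312% of all tested genes), and with limma-voom 1 of 36 (0.793%), Rgs1, higher, in both. Without both batch 1 libraries and with the replicate block, 5 of 40 tested were called (Ccr7, Ccrl2, Cxcr2, Cxcr4 and Rgs1, all higher). These names were taken after their values were seen. That fit called 3.01% of all tested genes, with 1 residual degree of freedom. Leaving out any 1 library left both counts at 0. Among the 10 genes, the fitted direction changed under 5 of 16 alternatives for C5ar1 (range -1.50 to 0.92), under 1 of 16 for C3 (-0.95 to 0.06) and under none run for the other 8. Fpr2 ranged from -2.12 to -1.71, Fpr1 from -1.61 to -0.99 and Cfb from -6.30 to -3.06. The value of -6.30 came from limma-voom, where the median of all tested genes was -0.65 and C5ar1 was at -0.00046. The stricter filter left 6 of the 10 tested. Genes at 0 in the replicate 1 libraries, mainly the C1q chains and C3ar1, limit what those libraries can show.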

Other observations

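Some complement genes of the terminal and lectin pathways, and some plasma regulators, were counted almost only in Sdha-KO replicate 2. Others were not, such as Hc and Serping1, whose counts are given above. Of 51 complement genes outside the 10, 12 had at least 5 counts in that library and at most 2 in every other. This pattern was found in 3 for Sdha-KO replicate 3 (C1s2, Fcna and Susd4) and 1 for WT replicate 3 (C4a). The share of all genes in the table with this pattern was not counted, so the 12 are a description of that library only. C8a, C8b and C8g, which encode the chains of C8, a part of the membrane attack complex, had 39, 13 and 10 counts in Sdha-KO replicate 2, and C6 and C9 had 7 and 5. The mannose-binding lectin genes Mbl1 and Mbl2 had 10 and 9 counts, the factor I gene Cfi 14, the vitronectin gene Vtn 23, and C4bp, Cpn1 and Cpb2 had 6, 9 and 8. These proteins are made mainly by the liver.

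Liver-secreted proteins that are not part of complement, looked up after this was seen, were also highest in that library. Alb had 2709 counts in Sdha-KO replicate 2 and at most 47 elsewhere. Apoa1 had 434 and at most 41 elsewhere, Apoa2 had 285 and at most 39, and Ahsg had 263 and at most 8, whereas Fga had 2 counts there and none elsewhere. Whether C3 and Cfb counts of that library include RNA from the same source was not tested.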
